A study of Mus musculus with 10 samples.

Results

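The genes described here are 6 of the 36401 in the deposited tables that carry cholesterol across the intestinal cell: Npc1l1, Abcg5, Abcg8, Abca1, Soat2 and Scarb1. They were found by symbol, each symbol had 1 gene ID, and all 6 passed the filter on low counts that 15678 genes passed. Dietary and biliary cholesterol enters the enterocyte at the brush border through NPC1L1, the protein blocked by the drug ezetimibe. Inside the cell SOAT2, also called ACAT2, joins it to a fatty acid for packing into chylomicrons. ABCG5 and ABCG8 pair to pump unesterified sterols back into the lumen, ABCA1 loads cholesterol onto apolipoprotein A-I at the basolateral side to start HDL, and SCARB1 (SR-BI) is a receptor that binds HDL.

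The tissue was terminal ileum of male C57Bl6 mice, for which the labels give a diet with 60 kcal % fat for 6 weeks before surgery and an age of 8 weeks at surgery. After the operation 5 mice with a vertical sleeve gastrectomy (VSG), which removes most of the stomach along its outer curve, ate ad libitum. The other 5 had a sham operation and were pair-fed to the VSG mice (SPF). Both groups received the liquid diet Osmolite for 4 days around surgery, and about 8 weeks later they were fasted overnight and gavaged with 0.5 mL of it 1 hour before the ileum was taken. No label speaks of pooled animals, and no genetic change is given for either group. RNA was read in single-end 50-base reads, with estimated counts per library summing to between 15364651 and 34058181.

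Of the 10 libraries, 3 stood apart in genes of the upper small intestine, which a terminal ileum sample should hardly contain: VSG 2, SPF 2 and SPF 4. The mean of 8 such markers was 4.86 log2 CPM (counts scaled to library size) in VSG 2, 4.43 in SPF 2 and 6.47 in SPF 4, against 1.41 to 2.35 in the other 7. Lct, the brush border lactase, had an estimated count of 53182 in VSG 2, and of 81778 and 26038 in SPF 2 and SPF 4, against 118 to 732 in VSG 1, 3, 4 and 5 and 143 to 295 in SPF 1, 3 and 5. Gata4, a factor that specifies jejunal identity, had 3114 in VSG 2 and 3388 and 3293 in SPF 2 and SPF 4, against 44 to 167 and 60 to 117 in those same other VSG and SPF libraries. Of the 8 markers, 5 (Gata4, Lct, Onecut2, Adh6a and Gip) had all 3 libraries above all 7. Cybrd1 did not separate them, at 5.01 to 5.75 CPM in the 3 and 3.58 to 7.05 CPM in the 7, Pdx1 was high in SPF 4 alone, with an estimated count of 260 against 0 to 9 elsewhere, and Slc40a1 was lower in the 3, at 3.68 to 13.6 CPM against 35.8 to 98.3 CPM. The ileal bile acid genes were lower in the 3 as well: Slc10a2, the ileal bile acid importer, lay between 3.90 and 15.4 CPM in the 3 libraries and between 192 and 519 CPM in the 7, and Fabp6, the ileal bile acid binding protein, between 39.0 and 62.1 CPM against 2558 and 6112 CPM. Because the 3 libraries are 1 VSG and 2 SPF, the fold changes of the members are given in the 10 libraries and in the 7, of which 4 are VSG and 3 SPF. Estimates of single partner genes and sums of tissue markers are from the 10 libraries unless the 7 are named.

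Stretches upstream of start sites are shown for the exporter pair, because its genes share this stretch, and for Abca1 and Npc1l1, as the start sites of the basolateral exporter and of the importer. They are RefSeq sequences of build GRCm38.p6, which has promoter windows for Npc1l1, Abca1, Abcg5 and Abcg8; the files themselves use mm9, so positions apply to the RefSeq build only. Abcg5 and Abcg8 lie head to head on chromosome 17, on opposite strands, and the first stretch is everything between their start sites, the plus strand of chr17:84683012-84683120, with Abcg5 read leftward from it and Abcg8 rightward. Its capitals mark matches to AGATAA, a motif bound by GATA factors, here in reverse. The second is the 120 bases upstream of Abca1, minus strand of chr4:53159896-53160015, with capitals on a match in reverse to GGTTA, 4 bases of any kind and CGGTCA, the form of the liver X receptor (LXR) element described in the Abca1 promoter. The third is the 120 bases upstream of Npc1l1, minus strand of chr11:6230246-6230365, with capitals on ATTAAC, part of the site of HNF1, a factor of liver and gut epithelium.
Abcg5 to Abcg8: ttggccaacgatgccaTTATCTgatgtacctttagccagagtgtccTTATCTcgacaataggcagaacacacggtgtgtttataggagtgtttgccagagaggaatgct
Abca1: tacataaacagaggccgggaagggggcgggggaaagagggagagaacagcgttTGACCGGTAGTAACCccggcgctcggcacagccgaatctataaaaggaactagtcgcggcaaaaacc
Npc1l1: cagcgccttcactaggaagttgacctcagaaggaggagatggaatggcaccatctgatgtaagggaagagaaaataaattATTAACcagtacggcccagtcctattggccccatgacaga

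The stretch between Abcg5 and Abcg8 held 2 AGATAA matches in 109 bases. The windows of 300 bases around these start sites (250 upstream, 50 downstream, both strands) held 3 for Abcg5 and 3 for Abcg8. The windows overlap, and these are the same 3 sites counted from both genes. RefSeq has a second Abcg8 start site, at position 84676302 of chromosome 17, whose window held none of the motifs searched. Over the genome, 0.107% of 32851 mouse promoter windows of that length held at least 3, and 1.14% at least 2. The Abca1 form of the LXR element was found in 0.0122% of windows, 4 in all. This pattern was taken from the Abca1 promoter, which is among the 4, so its match there was set in advance. The LXR repeat in its consensus form, 2 copies of AGGTCA with 4 bases of any kind between, was in 0.0152% of windows and in none of the members' windows. ATTAAC was in 7.1% of windows, and Npc1l1 was the only member with it. Of the other motifs searched, TATAAA (13.6% of windows) was in those of Abca1, Abcg5 and Abcg8, and CCAAT (37.4%) in those of Npc1l1, Abcg5 and Abcg8. The TATAAA match of Abcg5 and Abcg8 is the same site counted from both genes, and the CCAAT match of Abcg5 is also counted for Abcg8. GGGCGG (35.7%) was in the window of Abca1, while motifs of NR5A2, HNF4 and SREBP (1.56%, 0.475% and 1.24%) had no match in the members' windows. These matches describe letters and not binding.

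The order of the 6 members in ileum spanned a wide range once counts were set per length of exon (the union of exons in the GRCm38 annotation, matched by gene ID). Npc1l1 came first with 235.6 ± 76.3 CPM per kb (SD, n = 10) and rank 212 of 15020 genes with a length. Abcg5 followed with 106.9 ± 38.4, Soat2 with 72.9 ± 38.9 and Abcg8 with 71.2 ± 23.0 CPM per kb, at ranks 519, 764 and 789. Abca1 had 4.50 ± 4.18 and Scarb1 1.27 ± 1.19 CPM per kb, at ranks 7067 and 10781. Npc1l1 exceeded Abcg5 in 9 of 10 libraries, the exception being SPF 4, and Abcg5 exceeded Soat2 in 9, the exception being SPF 2. Soat2 and Abcg8 did not differ beyond their spread, with Soat2 the higher in 3 of 10. Abcg8 exceeded Abca1 in all 10, and Abca1 exceeded Scarb1 in all but SPF 4. The importer, the esterifying enzyme and the pair of luminal exporters were thus among the 5.25% most abundant genes per length, and the basolateral exporter and the HDL receptor were not.

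**Figure D1:**
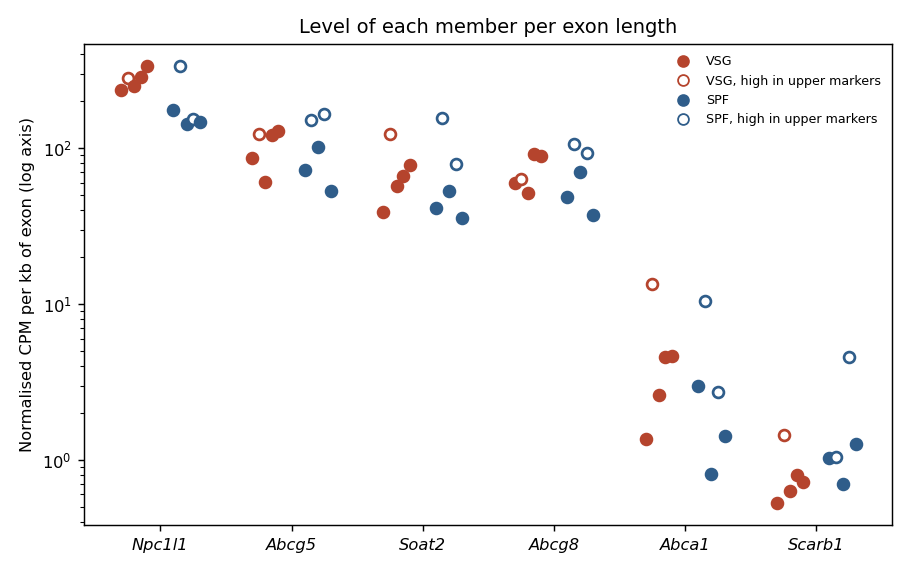
Normalised CPM per kb of exon on a log axis for each member and library, VSG left of SPF; open points are VSG 2, SPF 2 and SPF 4. Npc1l1 averaged 235.6 CPM per kb and Scarb1 1.27, and Soat2 and Abcg8 overlap at 72.9 and 71.2.

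Surgery was compared with edgeR's quasi-likelihood test over all genes, with Benjamini-Hochberg adjustment. None of the 6 members passed it, and neither did any of the 15678 genes (0%), while 595 genes (3.8%) had an unadjusted p under 0.05, none of them a member. DESeq2 called 11 genes (0.0702%), none of them a member. Its unadjusted p was 0.0333 for Npc1l1 and 0.0314 for Scarb1, with 727 genes under 0.05. For every member the VSG and SPF libraries overlapped; over all genes, all VSG libraries lay above all SPF libraries in 40 (0.255%) and below in 46 (0.293%). In bulk tissue, fewer cells of a type and less RNA per cell cannot be told apart.

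**Figure D2:**
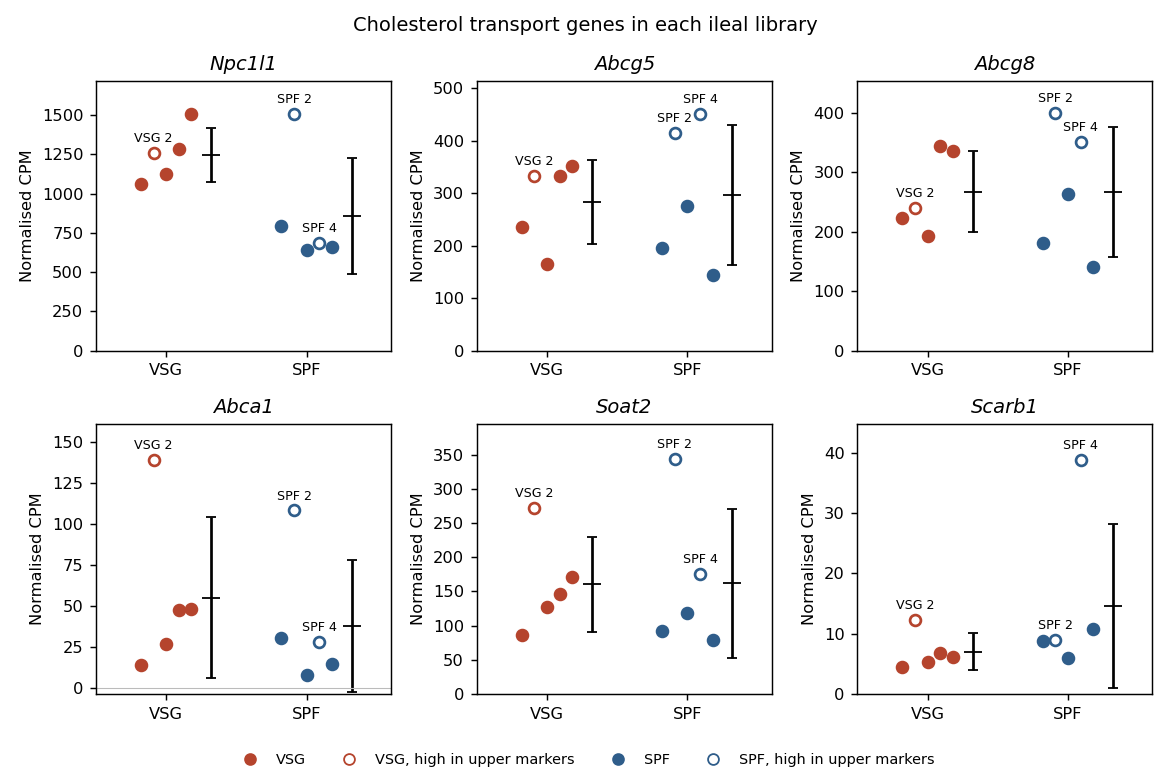
Normalised CPM of each member in each library, VSG left and SPF right, with mean and SD (n = 5 each) beside the points; open points are VSG 2, SPF 2 and SPF 4. Npc1l1 in 4 of 5 SPF libraries lies below all VSG libraries, while SPF 2 at 1509 CPM does not.

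Npc1l1, the importer, had 1062, 1258, 1125, 1282 and 1509 CPM in VSG 1 to 5, against 791, 1509, 640, 687 and 659 CPM in SPF 1 to 5. All 5 VSG libraries lay above 4 of the SPF libraries, and SPF 2, the 1 SPF library at the level of the highest VSG library, is among those with upper small intestine markers. The means were 1247 ± 173 CPM in VSG and 857 ± 369 CPM in SPF (SD, n = 5 each). Its log2 fold change was 0.54 ± 0.26 (SE, 95% interval -0.03 to 1.11) with an edgeR p of 0.0612 and an adjusted p of 0.977. In the 7 libraries the 4 VSG values all exceeded the 3 SPF values, with means of 1245 ± 199 CPM in VSG and 697 ± 82.3 CPM in SPF. The log2 fold change there was 0.84 ± 0.20 (95% interval 0.38 to 1.3), with an edgeR p of 0.00258 and an adjusted p of 0.633, so it did not pass the test. Among all 15911 genes tested in the 7 libraries, 694 (4.36%) had all VSG above all SPF libraries and 1107 (6.96%) an unadjusted p under 0.05.

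Most enterocyte markers were higher in VSG, as Npc1l1 was, but the libraries did not follow the same order. The summed level of 8 such markers ranged from 25843 to 38087 CPM in VSG and from 15709 to 40121 CPM in SPF, SPF 2 being again the highest, and 7 of the 8 had the higher mean in VSG. SPF 3, with the lowest Npc1l1 of the 10 libraries at 640 CPM, had a sum of 29005 CPM. VSG 1, with Npc1l1 at 1062 CPM, had 25843 CPM. In the 7 libraries the sums were 25843 to 38087 CPM in VSG and 15709 to 29005 CPM in SPF, with all 8 higher in VSG, and no marker was at 0 in all libraries. Set against Vil1, a structural protein of the brush border chosen after the values were seen, Npc1l1 counts were 0.331 to 0.373 of those of Vil1 in VSG and 0.181 to 0.396 in SPF. The lowest, 0.181, was in SPF 3. The log2 difference of that ratio was 0.29 (exact two-sided permutation p = 0.183, adjusted over the 6 members 0.512) in the 10 libraries, with SPF 2 the highest of all. In the 7 it was 0.40 (exact permutation p = 0.114), where 0.0286 is the smallest p the design allows, and 1 SPF library, SPF 5 at 0.361, lay within the VSG range. Among the other tissue markers in the 10 libraries, none of 7 smooth muscle markers was higher in VSG, with sums of 726 to 1542 CPM in VSG and 288 to 3733 CPM in SPF, nor were any of 5 red blood cell markers (36.3 to 137 and 75.3 to 173 CPM). Adipocyte markers summed to 99.1 to 188 CPM in VSG and 60.7 to 241 CPM in SPF, B cell markers to 17.3 to 190 and 10.2 to 244 CPM, and 7 ileal enterocyte markers, all higher in VSG, to 1389 to 10044 and 510 to 11112 CPM. Cidec, at means of 83.1 and 87.6 CPM, was the largest part of the adipocyte sums. It is also a gene of the lipid droplet list, so these sums do not measure adipocytes alone. Of 8 B cell markers 6 were higher in VSG in the 10 libraries and 0 in the 7. The part that enterocyte content has in the Npc1l1 values was not tested beyond these ratios.

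Abcg5 and Abcg8, the luminal exporter pair, had near-equal means in both groups. Abcg5 had 236, 333, 165, 332 and 351 CPM in VSG 1 to 5, against 195, 414, 275, 451 and 145 CPM in SPF 1 to 5. Abcg8 had 223, 239, 193, 345 and 335 CPM in VSG 1 to 5, against 181, 399, 263, 351 and 140 CPM in SPF 1 to 5. For both genes the SPF libraries reached beyond the VSG libraries at both ends, with SPF 2 and SPF 4 at the top and SPF 5 at the bottom. The log2 fold change was -0.06 ± 0.33 for Abcg5 (95% interval -0.78 to 0.65, edgeR adjusted p = 0.993) and 0.0016 ± 0.29 for Abcg8 (95% interval -0.64 to 0.65, edgeR adjusted p = 0.999). These intervals leave room for a change of more than 0.6 on the log2 scale either way. In the 7 libraries the estimates were 0.40 ± 0.31 for Abcg5 and 0.49 ± 0.29 for Abcg8, with edgeR adjusted p-values of 0.806 and 0.755, and the groups overlapped. Relative to Vil1, the log2 differences in the 7 were -0.05 for Abcg5 and 0.06 for Abcg8 (exact permutation p = 0.943 and 0.743). The part of enterocyte content in these estimates was not tested further.

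The pair varied together from library to library. Over the 7 libraries the log2 levels of Abcg5 and Abcg8 gave Pearson r = 0.971 (exact permutation p = 0.00119, adjusted over the 15 pairs of members 0.0179) and Spearman rho = 0.929 (exact permutation p = 0.00675, adjusted 0.101). Without the 2 libraries farthest from the median of Abcg5, r was 0.937. Leaving out VSG 1, 4 or 5 gave r of 0.973, 0.966 and 0.961 with adjusted exact permutation p-values of 0.0903, 0.0625 and 0.0625, and leaving out SPF 3 or 5 gave r of 0.971 and 0.955 with 0.0833 and 0.167. Leaving out VSG 3 or SPF 1 gave r of 0.995 and 0.973, each with an adjusted exact permutation p of 0.0417. No other pair passed after adjustment. The next highest were Abcg8 with Soat2 at r = 0.841 (rho = 0.786; exact permutation p = 0.0228 and 0.048, adjusted 0.171 and 0.199) and Npc1l1 with Abca1 at r = 0.784 (rho = 0.821; exact permutation p = 0.0472 and 0.0341, adjusted 0.236 and 0.199), with r of 0.725 and 0.484 without the 2 farthest libraries, the remaining r running from -0.50 to 0.73. Of 10941 genes, 173 had r above 0.9 with Abcg5 and 218 with Abcg8, as a description over the same 7 libraries, which differ in cell makeup. In the annotation the 2 genes share 82 bases of exon on opposite strands, and neither labels nor files say whether counting used strand, so reads in those bases cannot be assigned between them.

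The balance within the pair differed in a few libraries. The count of Abcg5 over that of Abcg8, which is not a per-length ratio and serves only to compare libraries, was 1.39 in VSG 2 and 0.854 in VSG 3, with VSG 1, 4 and 5 at 1.06, 0.963 and 1.05, against 1.29 in SPF 4 and 1.04 to 1.08 in the other SPF libraries. The log2 difference between groups was -0.06 in the 10 libraries and -0.11 in the 7, with exact two-sided permutation p-values of 0.667 and 0.286, so no group difference was found. The 2 highest ratios were in libraries with upper small intestine markers, but SPF 2, the third such library, had 1.04.

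**Figure D3:**
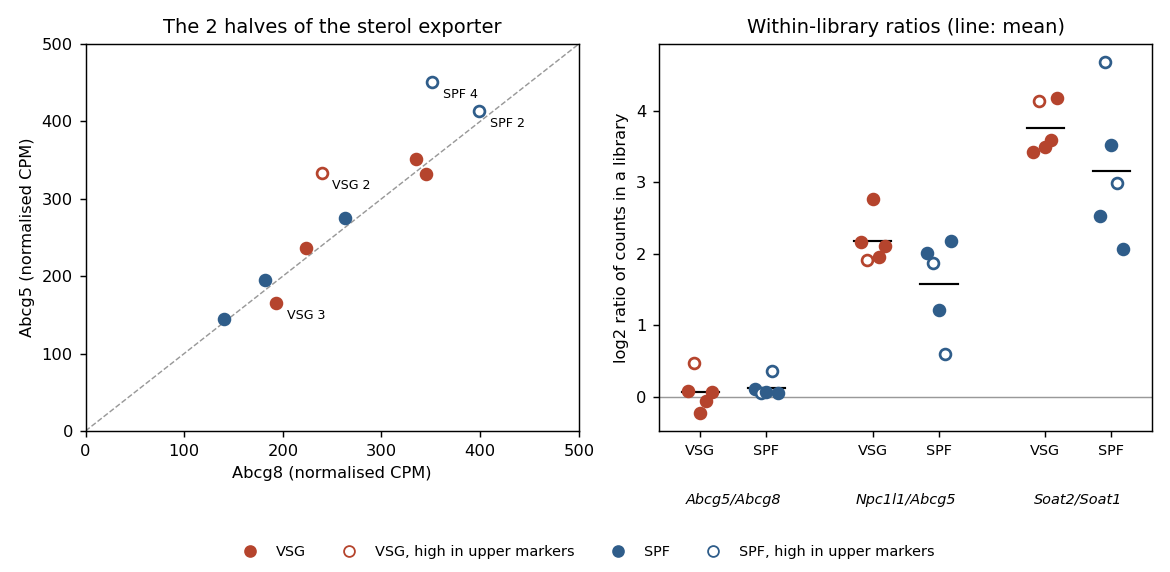
Left, Abcg5 against Abcg8 in normalised CPM, with the dashed line marking equal values; right, log2 ratios of counts within each library for 3 pairs of genes, VSG left of SPF, with the mean as a line. Abcg5 and Abcg8 stay near the line apart from VSG 2 at a ratio of 1.39, SPF 4 at 1.29 and VSG 3 at 0.854.

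Import against export was set side by side as the ratio of Npc1l1 to Abcg5 counts. It was 4.49, 3.77, 6.82, 3.86 and 4.30 in VSG 1 to 5, against 4.05, 3.65, 2.32, 1.52 and 4.54 in SPF 1 to 5. The lowest values were in SPF 3 and SPF 4, and the other SPF libraries lay at the level of most VSG libraries. The mean log2 ratio was 2.18 ± 0.34 in VSG and 1.58 ± 0.66 in SPF (SD, n = 5 each), a difference of 0.60 with an exact two-sided permutation p of 0.135, adjusted over 3 ratios to 0.381. Over the 7 libraries it was 0.44, with an exact permutation p of 0.343.

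Soat2, the esterifying enzyme, had 86.3, 272, 128, 146 and 172 CPM in VSG 1 to 5, against 91.6, 344, 118, 176 and 78.5 CPM in SPF 1 to 5. VSG 2, SPF 2 and SPF 4 held the 3 highest values of the 10. The log2 fold change was -0.01 ± 0.42 (95% interval -0.93 to 0.92, edgeR adjusted p = 0.999) in all libraries. In the 7 it was 0.47 ± 0.25 (95% interval -0.09 to 1.04, edgeR adjusted p = 0.749), with 133 ± 36 CPM in VSG (n = 4) and 96.0 ± 20.1 CPM in SPF (n = 3), and the groups overlapped. Relative to Vil1, the log2 difference of Soat2 in the 7 was 0.01 (exact permutation p = 0.971). Soat1, the isozyme found in most tissues, averaged 11.3 ± 2.82 CPM in VSG and 16.1 ± 4.63 CPM in SPF, a log2 fold change of -0.52 ± 0.23 (edgeR adjusted p = 0.977). The ratio of Soat2 to Soat1 counts ranged from 10.7 to 18.1 in VSG and from 4.2 to 25.7 in SPF, a log2 difference of 0.61 (exact two-sided permutation p = 0.254, adjusted 0.381). Over the 7 libraries the ratio was 10.7 to 18.1 in VSG and 4.2 to 11.5 in SPF, with a log2 difference of 0.97 and an exact permutation p of 0.0857, adjusted to 0.257.

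Abca1, the basolateral exporter, had the widest span of the members between its lowest and highest library, 16.6-fold, while its coefficient of variation of 92.8% was close to the 93.7% of Scarb1. It had 14.1, 139, 27.1, 47.7 and 48.3 CPM in VSG 1 to 5, against 30.8, 108, 8.39, 28.1 and 14.8 CPM in SPF 1 to 5. VSG 2 and SPF 2 stood far above the rest, while SPF 4, with the highest upper small intestine markers, did not. The log2 fold change was 0.54 ± 0.72 (95% interval -1.04 to 2.11, edgeR adjusted p = 0.977), and it turned to -0.15 without VSG 2 and to 1.43 without SPF 2. Without the 3 libraries it was 0.93 ± 0.52 (95% interval -0.25 to 2.12, edgeR adjusted p = 0.749), with 34.3 ± 16.7 CPM in VSG (n = 4) and 18 ± 11.6 CPM in SPF (n = 3). Relative to Vil1, the log2 difference of Abca1 in the 7 was 0.53 (exact permutation p = 0.457). Macrophages also express Abca1, and the summed level of 8 macrophage markers was 250 to 787 CPM in VSG and 263 to 903 CPM in SPF, with 2 of 8 higher in VSG. In the 7 libraries the sums were 250 to 533 CPM in VSG and 706 to 903 CPM in SPF. Lyz2 was the largest part of them, at 124 to 708 CPM over the 7, while no other macrophage marker there exceeded 59.7 CPM. The gap between these sums thus rests mainly on 1 gene. The part of macrophages in the Abca1 values was not tested.

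Scarb1, the HDL receptor, was the only member with the lower mean in VSG by more than its standard error. It had 4.49, 12.2, 5.34, 6.77 and 6.12 CPM in VSG 1 to 5, against 8.80, 8.92, 5.99, 38.8 and 10.7 CPM in SPF 1 to 5, from estimated counts of 79 to 696. SPF 4 was more than 3 times as high as any other library, and VSG 2 was the highest of the VSG libraries. The log2 fold change was -1.06 ± 0.50 (95% interval -2.16 to 0.04, edgeR adjusted p = 0.977), and -0.28 without SPF 4. Without the 3 libraries it was -0.58 ± 0.25 (edgeR adjusted p = 0.704), with 5.68 ± 0.99 CPM in VSG (n = 4) and 8.49 ± 2.37 CPM in SPF (n = 3), and SPF 3 lay within the VSG range. Endothelium, which also expresses Scarb1, gave marker sums of 63.6 to 130 CPM in VSG and 42.3 to 126 CPM in SPF, with none of 6 markers higher in VSG. Over the 7 those sums were 63.6 to 83.6 CPM in VSG and 42.3 to 126 CPM in SPF, with the lowest sum in SPF 3. Their part in the Scarb1 values was not tested.

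**Figure D4:**
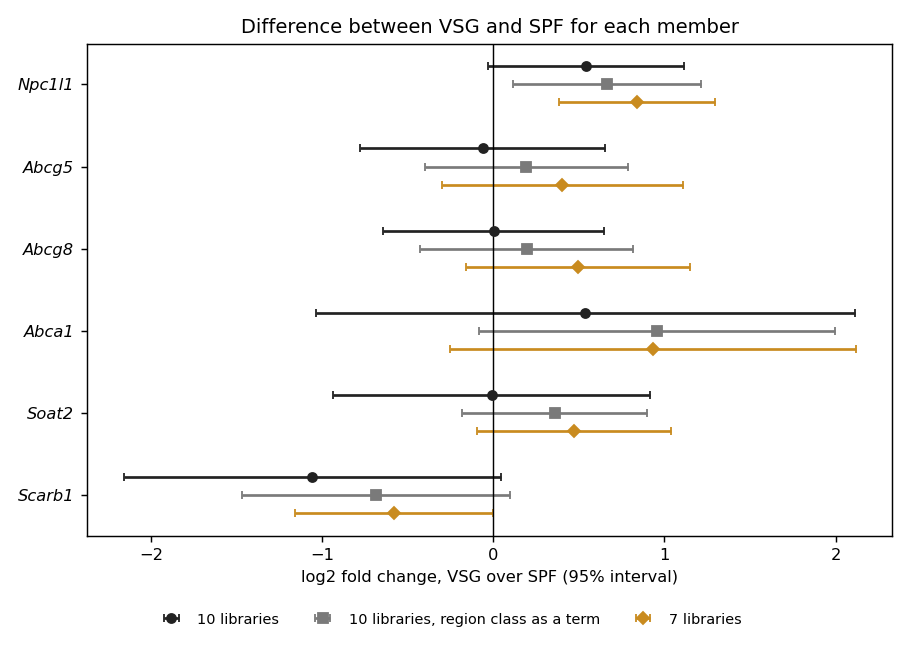
Log2 fold change of VSG over SPF with 95% intervals for each member in the 10 libraries, in the 10 with the 3-against-7 class as a term, and in the 7. Npc1l1 runs from 0.54 to 0.84 and Scarb1 from -1.06 to -0.58, and no adjusted p is under 0.05.

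A fit over all 10 libraries with the class of the 3 against the 7 as a second term gave estimates between or near those above. Npc1l1 had a log2 fold change of 0.66 (95% interval 0.12 to 1.21), Abca1 0.96 (-0.08 to 2.00), Soat2 0.36, Abcg8 0.20, Abcg5 0.19 and Scarb1 -0.69. All 6 had an adjusted p of 0.978, and no gene was called (0%).

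Between the 3 libraries and the other 7, levels are given as a description, since those sets were formed from marker genes and not from the labels. Soat2 was the only member for which all 3 libraries, at 176 to 344 CPM, lay above all 7, at 78.5 to 172 CPM; 953 genes (6.08%) did so, and 885 (5.64%) had all 3 below all 7. The mean over the 3 was 2.26 times that over the 7 for Soat2, 3.36 times for Abca1, 2.90 times for Scarb1, 1.64 times for Abcg5, 1.37 times for Abcg8 and 1.14 times for Npc1l1. The 3 libraries were not alike. SPF 4 had the highest Scarb1 and Abcg5 of all 10 but Npc1l1 and Abca1 of 687 and 28.1 CPM, while SPF 2 and VSG 2 had Npc1l1 of 1509 and 1258 CPM and the 2 highest Abca1 values.

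**Figure D5:**
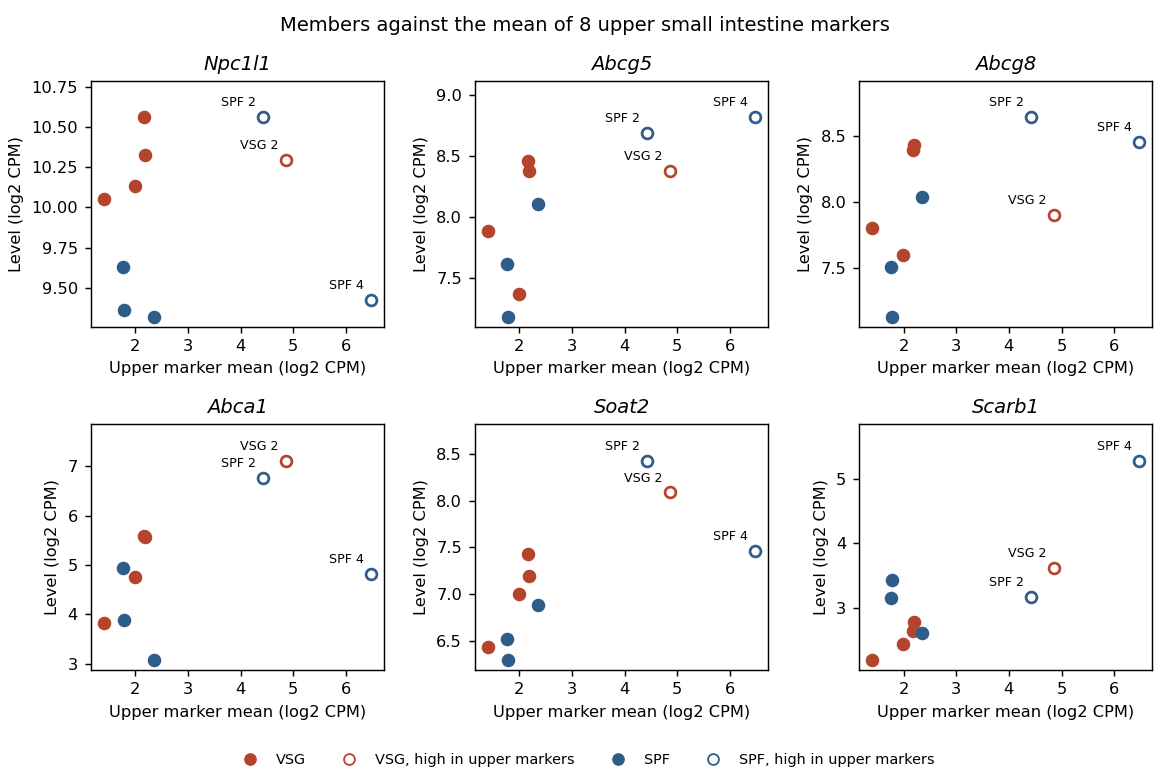
Log2 CPM of each member against the mean log2 CPM of 8 upper small intestine markers in the same library; open points are VSG 2, SPF 2 and SPF 4. For Soat2 alone the 3 open points all lie above the 7 filled ones, and SPF 4, at a marker mean of 6.47, is high for Scarb1 but not for Npc1l1 or Abca1.

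Partner genes of the pathway are set against the same shares of all genes, 6.08% with all 3 above all 7 and 5.64% with all 3 below. Of 11 tested targets of SREBP2, the factor that turns on cholesterol synthesis when cell sterols are low, 6 had all 3 libraries below all 7 and none above, among them Sqle, Idi1, Cyp51, Fdft1 and Mvd of the synthesis pathway. Sqle, for example, lay between 58.3 and 117 CPM in the 3 and between 148 and 354 CPM in the 7. Mttp and Apoa4, of 10 genes of chylomicron and HDL assembly, and Cideb and Cidec, of 8 genes of esterification and lipid droplets, had all 3 above all 7, as did the fatty acid receptor Cd36 at 142 to 245 CPM against 8.43 to 32.9 CPM, 1 of 8 receptor genes, of which 1 other lay below. Of 12 sterol transport genes 2 lay above and none below, and of 10 transcription factors of sterol and lipid metabolism 2 above and 2 below. Of 10 other LXR targets 1 lay above and 1 below. Of 3 luminal supply genes none lay above and 2 below (Fabp6 and Slc10a2), and of 8 NPC1L1 trafficking genes none either way.

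Between VSG and SPF, 71 distinct genes of 9 pathway lists were tested beside the members. None passed the test or had an unadjusted p under 0.05 in edgeR, against 3.8% of all genes, and 50 had the higher and 21 the lower estimate in VSG, with a median log2 fold change of 0.13 against -0.05 over all genes. Over the 7 libraries 53 were higher and 18 lower, again with none called. Of all genes tested, 6573 of 15678 were higher in VSG in the 10 libraries and 6869 of 15911 in the 7. Over the 10 libraries 47 to 50 of the 71 were higher under 4 scalings.

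For the entry step, the lists held genes of sterol supply in the lumen and of NPC1L1 trafficking. In the first, 2 of 3 tested were higher. Pnliprp2, a pancreatic lipase relative, averaged 46.1 ± 24.0 CPM in VSG and 100.8 ± 70.8 CPM in SPF (log2 fold change -1.13 ± 0.55, edgeR adjusted p = 0.977). Slc10a2 and Fabp6, the bile acid genes that mark the ileum, had log2 fold changes of 0.98 ± 1.08 and 0.52 ± 1.22. In the 7 libraries Pnliprp2, Slc10a2 and Fabp6 had -1.85, 0.59 and 0.12. Of 8 trafficking genes 7 were higher, with a median of 0.12. Rab11a, a GTPase of recycling endosomes, averaged 112 ± 16.2 CPM in VSG and 89.5 ± 18.5 CPM in SPF (log2 fold change 0.32 ± 0.16, edgeR adjusted p = 0.977), Flot2, a membrane scaffold protein, had -0.25 ± 0.14 and the GTPase Cdc42 0.20 ± 0.14.

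For handling inside the cell, 9 of 12 sterol transport genes were higher, with a median of 0.11. Npc1, which moves cholesterol out of lysosomes, averaged 63.9 ± 12.4 CPM in VSG and 48.3 ± 15 CPM in SPF (log2 fold change 0.40 ± 0.23, edgeR adjusted p = 0.977), and Anxa2 and Stard3 had 0.33 ± 0.24 and 0.21 ± 0.15. Of 8 genes of esterification and storage 5 were higher, with a median of 0.03 in the 10 libraries and 0.35 in the 7; scaled by upper quartile or by library totals, 4 were higher and 4 lower, with medians of -0.01 and -0.04. Beside Soat1, the cholesteryl ester hydrolase Nceh1 had -0.20 ± 0.16 and the lipid droplet coat protein Plin3 0.15 ± 0.22. In the 7 libraries Soat1, Nceh1 and Plin3 had -0.55, 0.05 and 0.35.

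For the exit step, 7 of 10 genes of chylomicron and HDL assembly were higher, with a median of 0.15 in the 10 libraries and 0.41 in the 7. Apob, the structural protein of chylomicrons, averaged 4430 ± 876 CPM in VSG and 3463 ± 2078 CPM in SPF (log2 fold change 0.36 ± 0.37, edgeR adjusted p = 0.977), Apobec1, the enzyme that edits its mRNA, had 0.24 ± 0.23 and Abca7, a transporter related to Abca1, 0.18 ± 0.14. Of 8 receptor genes 5 were higher. Vldlr, the VLDL receptor, had -0.47 ± 0.35 and Cd36 -1.12 ± 0.95 in the 10 libraries, against -0.64 and -0.19 in the 7.

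For control of these genes, 4 of 10 transcription factors of sterol and lipid metabolism were higher. Ppard, a fatty acid receptor of the nuclear receptor family, averaged 266 ± 51.1 CPM in VSG and 198 ± 45.5 CPM in SPF (log2 fold change 0.42 ± 0.20, edgeR adjusted p = 0.977), while Srebf1 had -0.39 ± 0.32 and Rxrb -0.13 ± 0.14. In the 7 libraries Ppard, Srebf1 and Rxrb had 0.29, 0.03 and -0.16. Srebf1 had all 3 libraries high in upper markers above all 7, at 100 to 170 CPM against 52.7 to 64.9 CPM. Abcg5, Abcg8 and Abca1 are LXR targets, and of 10 other LXR targets 6 were higher in the 10 libraries and 5 in the 7, with medians of 0.11 and -0.0054. Besides Srebf1, those with the lowest p were Arl4c at -0.26 ± 0.20 and Smpdl3a at 0.18 ± 0.17. All 11 SREBP2 targets were higher in the 10 libraries, with a median of 0.25, and 9 of 11 in the 7, with a median of 0.09. As given above, 6 of these 11 lay lower in all 3 libraries, of which 1 is VSG and 2 are SPF, and the part of this in the estimates was not tested. Lss, the enzyme that forms lanosterol, averaged 86.3 ± 33.0 CPM in VSG and 66.6 ± 28.7 CPM in SPF (log2 fold change 0.37 ± 0.34, edgeR adjusted p = 0.977).

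By pattern over the 7 libraries, the genes most like each member among 10941 with a mean of at least 5 CPM had Pearson r of 0.968 to 0.997, as a description of libraries that share a tissue and differ in cell makeup. For Npc1l1 these were Chfr, Atl2 and Dgkq, and for Soat2 Anxa13, Acy3 and Treh, the last being the brush border trehalase. Abcg5 had Rab11fip3, Wdtc1 and Atg9a, and Abcg8 had 1110038D17Rik, Plin2 and Tmc8, of which Plin2 coats lipid droplets. Abca1 was nearest to Lima1, Hspa12a and Dennd1b, and Scarb1 to Camkk1, Gbp4 and Elk3. Genes with r above 0.9 numbered 114 for Npc1l1, 90 for Abca1, 79 for Soat2 and 46 for Scarb1.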

How the data were processed

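The 10 libraries, 5 VSG and 5 SPF, were TruSeq RNA libraries per the labels. Deposited for each library are estimated counts, in files named for RPKM, of which 58.8 to 64.6% were whole, and log2 values. The submitters' processing notes name DESeq and mm9 but no aligner, and no counting tool is given. The deposited log2 values equal the log2 count plus an offset per gene and library, with a largest SD of 2.49e-07. Counts were rounded and tested with edgeR 4.0.16 (R 4.3.3; filterByExpr, TMM, quasi-likelihood F test, Benjamini-Hochberg at 0.05), with DESeq2 1.42.0 and limma 3.58.1 as alternatives. Log2 CPM used a prior count of 2; within-library ratios used 0.5 counts and exact permutation tests (SciPy 1.17.1) over 252 assignments, or 35 in the 7 libraries (smallest p 0.00794 and 0.0286). Standard errors are the fold change over the root of F, and intervals are at 95%. P-values measure the spread between these libraries.

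The 3 libraries were set apart by the widest gap in upper small intestine markers. The members and lists were chosen with earlier results of these data known. Named list genes are up to 3 per list, by p, averaging at least 1 CPM, Gata4, Lct, Fabp6 and Slc10a2 among the markers, and the 3 genes most like each member. Genes named for the 3-against-7 split, and Vil1 and Lyz2, were chosen after their values were seen. Some genes that the rule takes are not reported here. Of 136 list genes 135 matched; Hmgcs1 did not. On simulated counts with 10 libraries and 15514 genes, 38% of 2-fold and 94% of 4-fold changes were recovered, with 139 calls, 7 false. Many changes were planted together, which eases the adjusted threshold, and no 3-against-7 split was simulated. These shares may therefore overstate recovery of a single changed gene here.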

Additional observations from a re-analysis of the deposited data

Results flagged for a closer look

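Of 18 sets of 5 libraries examined (the 6 members and 3 ratios in each group), 6 had an end value far from the others; chance gives about 1 in 20. They were Abca1 in VSG 2 at 139 CPM, Abca1 in SPF 2 at 108 CPM, Npc1l1 in SPF 2 at 1509 CPM, Scarb1 in SPF 4 at 38.8 CPM, the Abcg5 to Abcg8 count ratio in SPF 4 at 1.29, and the Npc1l1 to Abcg5 count ratio in VSG 3 at 6.82. All but the last are in libraries high in upper small intestine markers.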

How the results depend on the processing

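No member was called in any alternative run. The unadjusted p of Npc1l1 was 0.0255 with limma-voom and 0.0238 with limma on the deposited log2 values. For Scarb1 these limma p-values were 0.148 and 0.125. DESeq2 called 11 genes where edgeR called 0. The sign for Abcg5 turned to 0.029 with the deposited log2 values, 0.19 with the class of the 3 libraries as a term and 0.40 without them; for Abcg8 to -0.041 with upper-quartile scaling and with library totals, -0.0026 with a minimum mean of 1 CPM and -0.25 relative to Vil1; for Soat2 to 0.0034 with no filter, 0.090 with voom, 0.13 with the deposited log2 values, 0.10 with the replicate block, 0.36 with the class term and 0.47 without the 3 libraries. These main estimates were close to 0, and the cause was not tested. Leaving out 1 library at a time, Npc1l1 ran from 0.46 without SPF 3 to 0.84 without SPF 2. Its unadjusted edgeR p was 0.115 without SPF 3 and 0.000824, the lowest, without SPF 2. The adjusted p, which depends on all genes tested, was 0.496, the lowest, without SPF 3 and 0.931 without SPF 2. Abcg5 ran from -0.23 to 0.16, Abcg8 from -0.15 to 0.19, Abca1 from -0.15 to 1.43, Soat2 from -0.28 to 0.47 and Scarb1 from -1.36 to -0.28. The log2 ratios ran from -0.16 to 0.015 for Abcg5 to Abcg8, 0.36 to 0.76 for Npc1l1 to Abcg5 and 0.34 to 0.99 for Soat2 to Soat1. With each library left out, edgeR called 0 genes. The r of Abcg5 with Abcg8 stayed between 0.955 and 0.995, but the count of pairs called was 0 or 1, being 0 in 5 of 7 cases, where 6 libraries remain. Among genes with p under 0.05 the share higher in VSG was 49.6% with TMM, 30.4% with upper-quartile scaling and 32.2% with totals, which moved the median of all genes to -0.1 and -0.11. Same-numbered libraries did not deviate together (correlations -0.42 to 0.36; 1 of 10 libraries was most like its own number), and with the replicate block edgeR called 0 genes, 408 having p under 0.05. The count with p under 0.05 was 1940 without SPF 3 and 1135 without VSG 2, against 399 to 695 without each other library. The common coefficient of variation was 0.355, and 38% of simulated 2-fold changes were recovered, a share that may be too high for a single gene. Changes of a member, 2-fold ones included, may thus go undetected.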
